A study of Mus musculus with 6 samples.

Results

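The cohesin complex and its regulators were examined in lung RNA of mice that lack 1 copy of the cohesin protector Sgo1. The 10 genes Smc1a, Smc3, Rad21, Stag1, Stag2, Pds5a, Pds5b, Wapl, Nipbl and Cdca5 were taken by name from a deposited table of read counts for 25860 genes, and all 10 were found there by Entrez Gene ID. RNA-seq had been made of normal-looking lung tissue at 12 months of age. One group of 3 libraries came from RAG1-/- mice (replicates 1, 2 and 3), and the other 3 came from RAG1-/-Sgo1-/+ mice (replicates 4, 5 and 6), 1 mouse per library. Both groups therefore lack RAG1, the recombinase needed for B and T cell receptors, and differ by label in Sgo1 alone. The Sgo1 allele is a heterozygous loss in the whole animal rather than in a chosen cell type, the background was C57BL/6 and no treatment was given. The labels do not give the sex of the mice.

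Cohesin is a ring that holds sister chromatids together from replication until anaphase and shapes chromatin loops in cells that do not divide. SMC1A and SMC3 form the arms, RAD21 closes the ring, and either STAG1 or STAG2 binds to it as an exchangeable subunit. NIPBL loads the ring, WAPL with PDS5 releases it, and sororin, the product of Cdca5, opposes WAPL until mitosis. Shugoshin-1, encoded by Sgo1, keeps cohesin at the centromere by bringing a phosphatase to it, so the comparison asks whether lungs with reduced Sgo1 carry altered transcript levels of the complex that Sgo1 protects.

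Between 3205822 and 9366774 reads per library fell on genes. Levels are given as CPM, counts per 1000000 reads on genes, and 3 reads, taken as the smallest amount detected, equal 0.320 to 0.936 CPM. Reads of Sgo1 itself numbered 6, 2 and 4 in the RAG1-/- libraries against 6, 0 and 2 in those of RAG1-/-Sgo1-/+, and the loss of a copy was not detectable at this depth. Rag1 reads numbered 8 to 24 per library in groups that both lack it by label (log2 fold change -0.15, adjusted *P*=0.976 in edgeR). Some libraries stand apart. Replicate 1 was the only one with Xist in quantity (7717 reads, against 4 to 8) and had 2 reads of the Y-linked Ddx3y, against 342 to 1228, and it held more adipocyte marker RNA (4 genes summed to 163 CPM, against 21.2 to 31.9). Replicate 2, labelled RAG1-/-, had 1853 reads of the immunoglobulin gene Igkc and a B cell marker sum over 6 genes of 718 CPM, against 15.8 to 20.7 elsewhere, which goes against its label. Replicate 6 lay far from the others on the first principal component, at 74.0 against -20.8 to -6.50. All 7 lung markers were abundant in every library, summing to 76000 to 98100 CPM.

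Summed over the 10 genes, cohesin RNA averaged 640 ± 11.8 CPM among RAG1-/- libraries and 608 ± 60.9 CPM among RAG1-/-Sgo1-/+ libraries (SD, *n*=3 each), from 1785 to 5890 reads per library. The sums were 629, 638 and 652 CPM in RAG1-/- and 675, 592 and 557 CPM in RAG1-/-Sgo1-/+. The ranges overlapped, and the values were more spread in RAG1-/-Sgo1-/+ (two-sided exact permutation test of 10 splits, *P*=0.5, where the smallest possible is 0.1). Within this sum, Stag2 was lower and Pds5a higher in RAG1-/-Sgo1-/+, each at an unadjusted *P* under 0.05 that did not survive adjustment over all genes. The other 8 members did not reach that level.

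Of 17231 genes with at least 10 reads over the 6 libraries, 0 (0%) were called by the quasi-likelihood test of edgeR with a 2-fold or larger difference and a *P* under 0.05 after Benjamini-Hochberg adjustment, and 0 of the 10 members were. DESeq2 called 1 gene, no member, and limma-voom 0. All 10 members passed the filter on low counts. An unadjusted *P* under 0.05 was found for 2 of the 10 members, against 976 of all tested genes (5.66%), and counts this small cannot set the members apart from the rest. The 3 libraries of one group lay wholly above those of the other for 3 members, against 11.8% of all tested genes. The median log2 fold change (RAG1-/-Sgo1-/+ over RAG1-/-) was 0.015 over the members, with 5 above 0 and 5 below, and 0.034 over all tested genes.

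**Figure D1:**
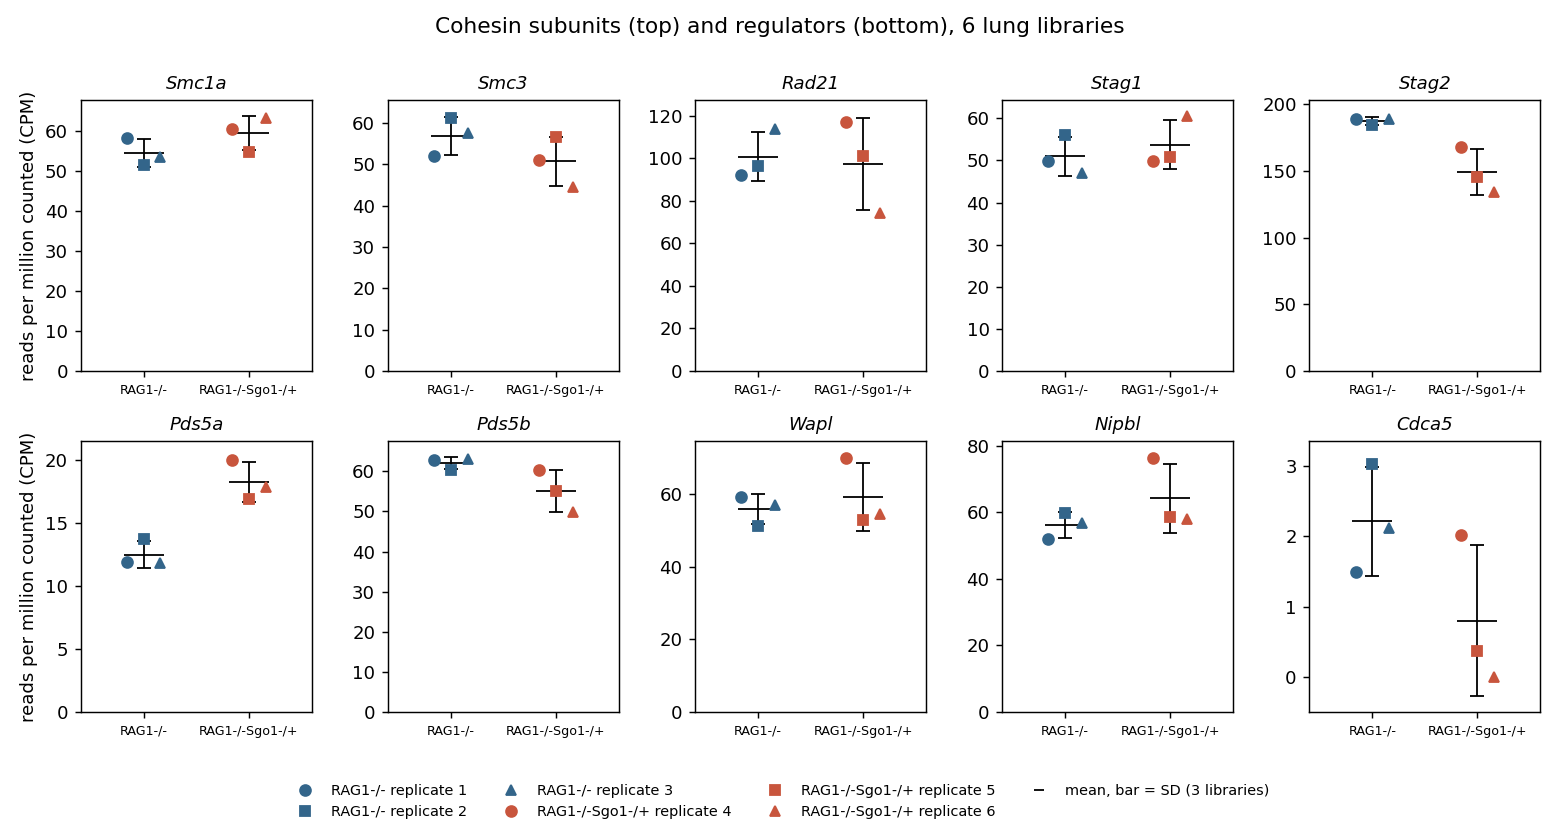
CPM of the 5 ring subunits (top row) and 5 regulators (bottom row) in each lung library, RAG1-/- in blue and RAG1-/-Sgo1-/+ in red, with the group mean (long dash) and SD (bar). The groups do not overlap for Stag2 (184 to 189 against 134 to 168 CPM), Pds5a (11.8 to 13.7 against 16.9 to 20.0) and Pds5b, where the lowest RAG1-/- and the highest RAG1-/-Sgo1-/+ library are both at 60.4 when rounded.

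Stag2, which encodes the more abundant of the exchangeable subunits, was the ring member that differed most. It was at 189, 184 and 189 CPM in RAG1-/- and at 168, 145 and 134 CPM in RAG1-/-Sgo1-/+. The RAG1-/- libraries were nearly level, with a coefficient of variation of 1.45%, and every RAG1-/-Sgo1-/+ library lay below them. These are means of 188 ± 2.72 and 149 ± 17.3 CPM (SD, *n*=3), from 429 to 1772 reads per library. Expression was 1.26-fold lower (log2 fold change -0.33, SE 0.12, 95% interval -0.61 to -0.056). The unadjusted *P* of the edgeR fit was 0.0231 and the adjusted *P* 0.832. The 2-fold limit lies outside that interval.

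Stag2 and Smc1a lie on the X chromosome, and replicate 1 alone had the Xist level of a female. Without replicate 1 the log2 fold change of Stag2 stayed at -0.33 (unadjusted *P*=0.0524 in edgeR). It was -0.35 without replicate 2 (unadjusted *P*=0.0503 in edgeR) and -0.26 without replicate 6 (unadjusted *P*=0.0568 in edgeR). It was -0.33 without replicate 3 (unadjusted *P*=0.0611 in edgeR) and -0.31 without replicate 5 (unadjusted *P*=0.0696 in edgeR), and strongest without replicate 4, at -0.43 (unadjusted *P*=0.0079 in edgeR). The log2 fold change of Stag2 thus ran from -0.43 to -0.26 in these fits. Since its groups do not overlap in CPM, leaving out a library could not be expected to turn its direction. Stag2 stayed under an unadjusted *P* of 0.05 only without replicate 4. As a share of the reads of the 10 members, a ratio that needs no scaling between libraries, Stag2 took 30.1%, 28.9% and 29.0% in RAG1-/- against 24.8%, 24.5% and 24.0% in RAG1-/-Sgo1-/+. This share was taken up after the values of Stag2 were seen and restates them on another scale, so it is given as a description with no test.

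Stag1, whose product replaces STAG2 in part of the rings, was at 49.9, 56.0 and 46.9 CPM in RAG1-/- and at 49.9, 50.8 and 60.5 CPM in RAG1-/-Sgo1-/+. The groups overlapped, and the highest value was that of replicate 6. Its log2 fold change was 0.075 (SE 0.14, interval -0.23 to 0.38, adjusted *P*=0.949). Of the reads on Stag1 and Stag2 together, Stag2 took 79.1%, 76.7% and 80.1% in RAG1-/- against 77.1%, 74.1% and 68.9% in RAG1-/-Sgo1-/+. The lowest share, in replicate 6, had a 95% Wilson interval of 65.1% to 72.4%, which covers counting error only and is too narrow where both reads of a pair were counted. The group means were 78.7 ± 1.75% and 73.3 ± 4.15% (SD, *n*=3). Replicate 4 of RAG1-/-Sgo1-/+ nevertheless lay above replicate 2, and the ranges overlapped (*P*=0.2 by exact permutation).

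The SMC arms showed no such difference. Smc1a was at 58.3, 51.5 and 53.7 CPM in RAG1-/- and 60.6, 54.8 and 63.3 CPM in RAG1-/-Sgo1-/+ (log2 fold change 0.12, SE 0.13, interval -0.15 to 0.40, adjusted *P*=0.890). Replicate 5 lay inside the RAG1-/- range. Without replicate 1 the log2 fold change of Smc1a was 0.18. Smc3 was at 52.1, 61.2 and 57.5 CPM in RAG1-/- and 51.1, 56.5 and 44.6 CPM in RAG1-/-Sgo1-/+ (log2 fold change -0.16, SE 0.14, interval -0.47 to 0.15, adjusted *P*=0.874). Without replicate 6 the log2 fold change of Smc3 was -0.079, and without replicate 5 it was -0.25. The arms enter the ring in equal number, and their reads were split nearly evenly: Smc1a took 48.9 ± 3.60% of the pair in RAG1-/- and 54.1 ± 4.71% in RAG1-/-Sgo1-/+ (SD, *n*=3; exact permutation test, *P*=0.2).

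Rad21, the subunit that separase cuts at anaphase, was at 92.0, 96.4 and 114 CPM in RAG1-/- and at 117, 101 and 74.2 CPM in RAG1-/-Sgo1-/+. Its highest and its lowest value were both in RAG1-/-Sgo1-/+, in replicates 4 and 6. The log2 fold change was -0.045 (SE 0.17, interval -0.43 to 0.34, adjusted *P*=0.980). It turned to 0.11 without replicate 6 and to 0.053 without replicate 3, so these libraries give Rad21 no stable direction.

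Among the regulators, Pds5a had the lowest *P* of all members. PDS5A and PDS5B are related proteins that bind RAD21 and work both with WAPL in release and with sororin in keeping cohesion. Its reads numbered 111, 68 and 78 in the RAG1-/- libraries against 99, 91 and 57 in those of RAG1-/-Sgo1-/+. Scaled to depth, these are 11.9, 13.7 and 11.8 CPM against 20.0, 16.9 and 17.8 CPM. Every RAG1-/-Sgo1-/+ library lay above every RAG1-/- library. The means were 12.5 ± 1.10 and 18.2 ± 1.62 CPM (SD, *n*=3), or 1.47-fold higher in RAG1-/-Sgo1-/+ (log2 fold change 0.55, SE 0.19, 95% interval 0.12 to 0.98). The unadjusted *P* was 0.0165 in edgeR and the adjusted *P* 0.832.

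Leaving out single libraries moved the log2 fold change of Pds5a between 0.48 and 0.62. The unadjusted *P* of the edgeR fit stayed under 0.05 without replicate 2, 5 or 6, and was 0.0519 without replicate 1, 0.0521 without replicate 3 and 0.0577 without replicate 4. Counting members under 0.05 in these fits gives 0 without replicate 1 or 3, 1 without replicate 2, 5 or 6 (Pds5a each time), and 2 without replicate 4, Stag2 and Cdca5.

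Pds5b lay on the other side of 0. It was at 62.8, 60.4 and 63.1 CPM in RAG1-/- and at 60.4, 55.2 and 49.9 CPM in RAG1-/-Sgo1-/+. The groups were apart by less than the rounding of these values (exact permutation test, *P*=0.1), and the log2 fold change was -0.17 (SE 0.12, interval -0.45 to 0.11, adjusted *P*=0.859). Without replicate 6 it was -0.10. Within the pair, Pds5b took 84.1%, 81.5% and 84.2% of the reads in RAG1-/- against 75.1%, 76.6% and 73.7% in RAG1-/-Sgo1-/+. Every RAG1-/- share lay above every RAG1-/-Sgo1-/+ share. Means were 83.3 ± 1.57% and 75.2 ± 1.44% (SD, *n*=3), a difference of -8.12 percentage points (exact permutation test, *P*=0.1, the smallest possible). With groups that do not overlap, this difference cannot change sign when a library is left out. It was the largest difference among the 4 pairs compared, and its Benjamini-Hochberg adjusted *P* over these pairs was 0.267 (exact permutation).

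**Figure D2:**
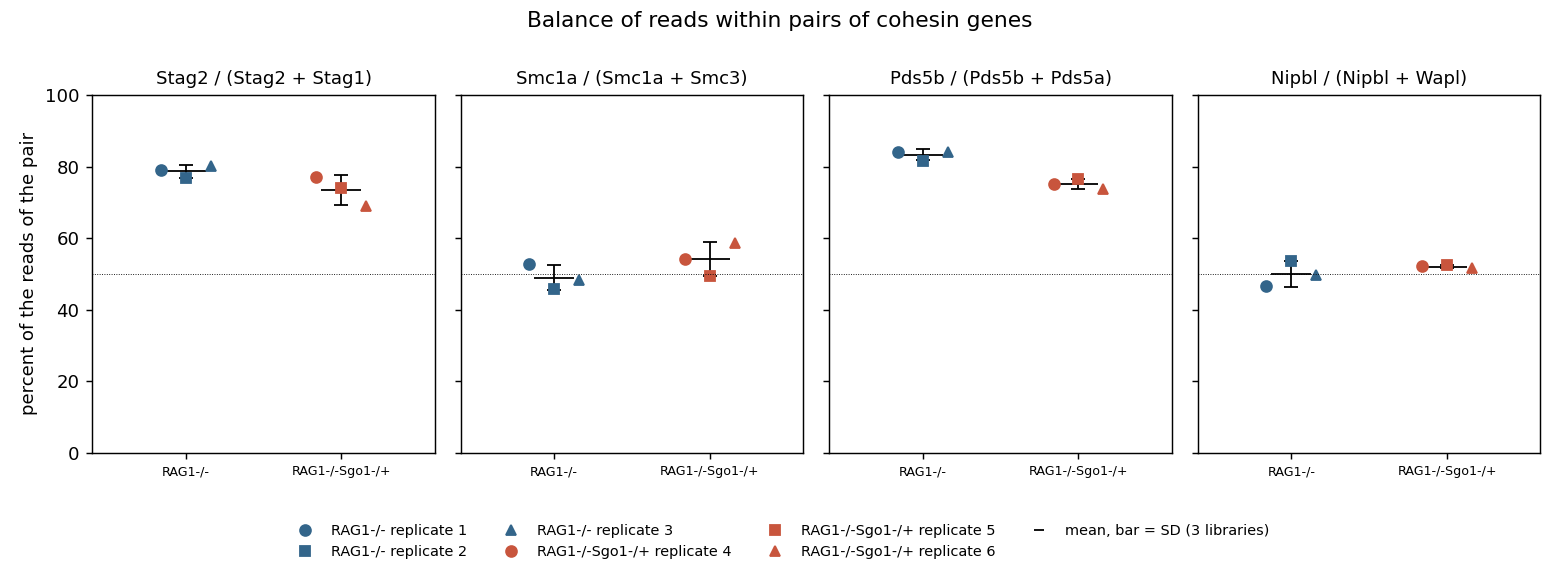
Share of the first gene in the reads of each pair, in percent, for the 6 libraries, with group mean and SD; the dotted line marks equal reads. The Pds5b share runs from 81.5% to 84.2% in RAG1-/- and from 73.7% to 76.6% in RAG1-/-Sgo1-/+, while the groups overlap for the other pairs.

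Wapl, the release factor, was at 59.4, 51.3 and 57.2 CPM in RAG1-/- and at 70.1, 53.0 and 54.6 CPM in RAG1-/-Sgo1-/+ (log2 fold change 0.081, SE 0.15, interval -0.24 to 0.41, adjusted *P*=0.946). Replicate 4 alone exceeded the RAG1-/- range, and without it the log2 fold change was -0.060. Nipbl, the loader, was at 51.9, 59.6 and 56.6 CPM in RAG1-/- and at 76.2, 58.5 and 58.0 CPM in RAG1-/-Sgo1-/+ (log2 fold change 0.20, SE 0.15, interval -0.12 to 0.52, adjusted *P*=0.859). Replicate 4 was again the only RAG1-/-Sgo1-/+ library above the RAG1-/- range, and without it the log2 fold change was 0.059. As for the balance of loader and release factor, Nipbl took 46.6%, 53.7% and 49.7% of the pair in RAG1-/-. That range holds the 52.1%, 52.5% and 51.5% of RAG1-/-Sgo1-/+ (*P*=0.4 by exact permutation). The difference was 1.99 points with all libraries and 1.97 points without replicate 4. It is replicate 2 alone that brings the RAG1-/- range over these shares. Without replicate 2 the groups did not overlap, and the difference was 3.84 points (*P*=0.1 by exact permutation).

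Cdca5 encodes sororin, which is made in dividing cells, and was the member with the fewest reads. Its reads numbered 14, 15 and 14 in the RAG1-/- libraries against 10, 2 and 0 in those of RAG1-/-Sgo1-/+, or 1.49, 3.03 and 2.12 CPM against 2.02, 0.370 and 0 CPM. The 0 in replicate 6, the shallowest library, allows a level of up to 0.936 CPM if each read counts as 1, and a higher one where a pair counts as 2. Replicates 5 and 6 lay below every RAG1-/- library and replicate 4 lay inside their range. The log2 fold change was -1.34 (SE 0.89, interval -3.32 to 0.65, adjusted *P*=0.853), an interval wide enough to hold 0 and a large decrease alike. Without replicate 4 it was -3.17, at an unadjusted *P* of 0.0146 in edgeR (adjusted *P*=0.570), and with any other library left out it ran between -1.56 and -0.87.

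Markers of dividing cells, summed over 8 genes, were at 67.8, 83.2 and 80.2 CPM in RAG1-/- and 82.0, 66.5 and 104 CPM in RAG1-/-Sgo1-/+. The sum was highest in replicate 6, where Mki67 gave 34.3 of the 104 CPM. Cdk1, Ccna2 and Birc5 were also highest there, but Top2a and Pcna were highest in replicate 4 and Mcm2 in replicate 2. Of the 7 tested, 0 had an unadjusted *P* under 0.05, and the cyclin gene Ccnb1 had 7 reads in all and was not tested. In whole lung, fewer cells of a type and less RNA per cell cannot be told apart.

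Promoter windows are shown for Cdca5, the member tied to the cell cycle, and for the Pds5a and Pds5b pair. They are RefSeq windows of 300 bases on build GRCm38.p6, from 250 bases before the annotated start to 50 after it, and 7 of the 10 members have one in the table used (not Rad21, Stag2 or Nipbl). Capitals mark TTTGAA, one form of the cell cycle genes homology region (CHR), an element known from genes expressed late in the cell cycle. Both strands were searched, and the motif is in 17.9% of all 32851 windows.
Cdca5, chr19:6084847-6085146, plus strand: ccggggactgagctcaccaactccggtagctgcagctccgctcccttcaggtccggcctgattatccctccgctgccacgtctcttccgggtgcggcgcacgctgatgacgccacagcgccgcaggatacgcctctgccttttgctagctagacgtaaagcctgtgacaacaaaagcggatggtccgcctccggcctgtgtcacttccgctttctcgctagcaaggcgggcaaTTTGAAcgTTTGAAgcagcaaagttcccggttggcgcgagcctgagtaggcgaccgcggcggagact
Pds5b, chr5:150673577-150673876, plus strand: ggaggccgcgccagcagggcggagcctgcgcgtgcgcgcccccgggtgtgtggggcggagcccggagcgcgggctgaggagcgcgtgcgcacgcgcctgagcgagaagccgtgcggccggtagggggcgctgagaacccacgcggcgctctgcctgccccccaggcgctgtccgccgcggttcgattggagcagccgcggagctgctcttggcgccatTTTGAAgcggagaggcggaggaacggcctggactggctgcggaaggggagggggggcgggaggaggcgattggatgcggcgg
Pds5a, chr5:65698187-65698486, minus strand: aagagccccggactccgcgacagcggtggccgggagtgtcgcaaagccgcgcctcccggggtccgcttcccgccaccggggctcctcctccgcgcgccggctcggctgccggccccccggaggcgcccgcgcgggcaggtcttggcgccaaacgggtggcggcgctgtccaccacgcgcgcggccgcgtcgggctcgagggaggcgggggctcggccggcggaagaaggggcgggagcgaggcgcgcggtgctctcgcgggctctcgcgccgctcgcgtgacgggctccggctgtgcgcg

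The Cdca5 window holds TTTGAA in 2 tandem copies, starting 17 and 9 bases before the annotated start, a count of 2 or more that 2.31% of all windows reach. Pds5b holds 1 copy, 32 bases before the start, and the windows of Pds5a, Smc1a, Smc3, Stag1 and Wapl hold none. All 7 windows are rich in G and C, from 58.3% in Smc1a to 80.3% in Pds5a, against a median of 52.7% over all windows. These matches describe the letters of the reference sequence and were not tested as binding sites.

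Levels of different members were compared per kilobase of merged exons, in CPM per kilobase averaged over the 6 libraries. Rad21 (23.4, from 17.5 to 27.7) and Stag2 (20.3, from 16.2 to 22.9) stood highest and overlapped. Their lowest library lay above the highest of the next members, Smc1a (9.89) and Smc3 (9.72). Wapl (8.70), Nipbl (6.38), Pds5b (5.96) and Stag1 (4.44) followed, each overlapping its neighbour in the order.

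Pds5a (0.793, from 0.610 to 1.03) and Cdca5 (0.707, from 0 to 1.42) were far below, and on merged exons did not differ from each other beyond their spread. The lengths came from a later annotation than the one used for counting. With the longest transcript as length Stag2 (27.3) passed Rad21 (25.1), and Stag1 was at 8.46 CPM per kilobase. Pds5a was then at 1.72 (from 1.32 to 2.24), above the mean of 0.744 for Cdca5 (from 0 to 1.5), with ranges that overlapped. The low place of Pds5a was kept under either length, but the gene model on which its reads were counted was not used here, so that whether it covers the whole transcript was not tested, for this level or for the Pds5b share. Pds5a also has the longest merged exons of the members (19.3 kb, against 8.93 kb for its longest transcript). Pds5a and Stag2 each overlap unclassified transcripts of the opposite strand in that annotation. Reads of such transcripts cannot be told apart when strand is not counted, and the strand setting is not stated. Whether this affected the counts of these members was not tested.

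**Figure D3:**
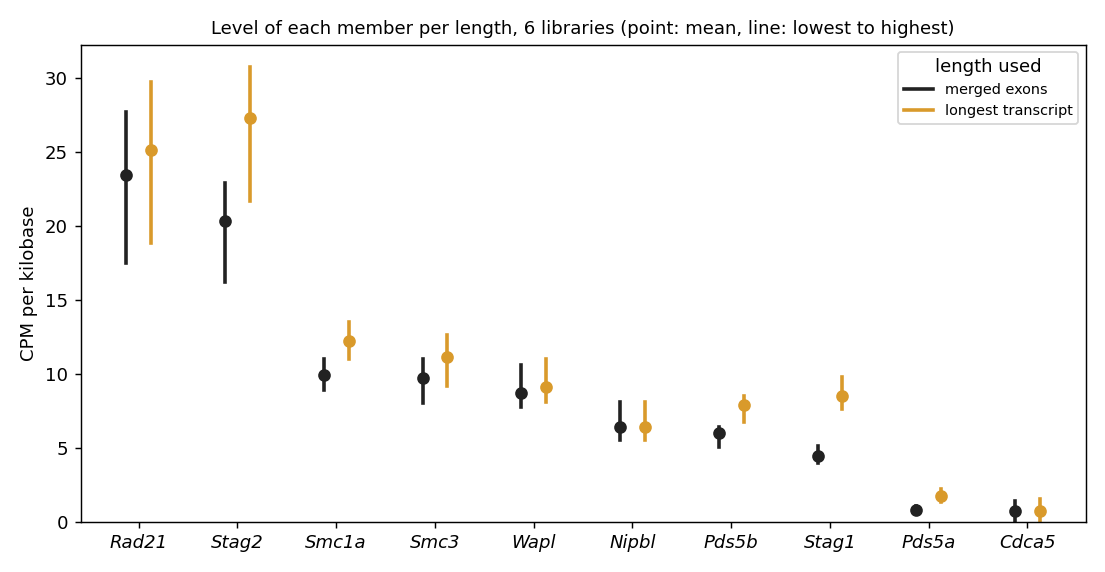
CPM per kilobase of each member over the 6 libraries (point: mean, line: lowest to highest library), with merged exons (black) or the longest transcript (orange) as length. Rad21 and Stag2 stay at 16.2 or more under either length, and Pds5a and Cdca5 at 2.24 or less.

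Genes that load, acetylate, protect or cleave cohesin were read as a list of 13. Of these, 1 was higher at an unadjusted *P* under 0.05, 0 were lower, and 0 were called after adjustment. That is 7.69% of the list, near the 5.66% of all tested genes, and says nothing particular of it, with a median log2 fold change of -0.0046 beside 0.034 over all tested genes. The gene that was higher is Mau2, whose product is the partner of NIPBL in the loader. Mau2 was at 54.7, 52.9 and 55.7 CPM in RAG1-/- and at 67.3, 72.8 and 69.2 CPM in RAG1-/-Sgo1-/+. The groups did not overlap, as for 11.8% of all tested genes. Its level was 1.28-fold higher (log2 fold change 0.36, SE 0.12, interval 0.10 to 0.62, unadjusted *P*=0.0114 and adjusted *P*=0.832 in edgeR). Mau2 stayed under an unadjusted *P* of 0.05 in all 6 edgeR fits with a library left out, between 0.33 and 0.38 on the log2 scale. Its partner Nipbl, described above, was at 0.20.

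The remaining genes of that list did not reach this level. Esco1, which acetylates SMC3, had a log2 fold change of -0.067 (interval -0.36 to 0.23), and Esco2, its counterpart in S phase, of -0.69 (interval -2.18 to 0.80) from 4 to 22 reads. Hdac8, the X-linked deacetylase of SMC3, was at -0.067 (interval -0.86 to 0.72). Ctcf, which stops cohesin at loop anchors, was at -0.022 (interval -0.33 to 0.29) from 289 to 995 reads.

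Sgo2a, the relative of Sgo1, was at 2.78, 2.02 and 3.03 CPM in RAG1-/- and 7.07, 3.70 and 3.12 CPM in RAG1-/-Sgo1-/+. The groups did not overlap, by a small margin in replicate 6, and the log2 fold change was 0.83 (SE 0.45, interval -0.17 to 1.82, adjusted *P*=0.832). The phosphatase that shugoshin brings to the centromere, PP2A with a B56 subunit, was read as 9 genes. Of these, 1 was higher at an unadjusted *P* under 0.05, Ppp2r5b (26.6 ± 4.82 against 36.3 ± 7.26 CPM, SD, *n*=3), with overlapping groups and an adjusted *P* of 0.832 in edgeR. With 5.66% of all tested genes at that level, 1 of 9 is no result about the list. Ppp2r5b stayed under an unadjusted *P* of 0.05 in 3 of 6 fits with a library left out. The median over the 9 genes was 0.035.

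**Figure D4:**
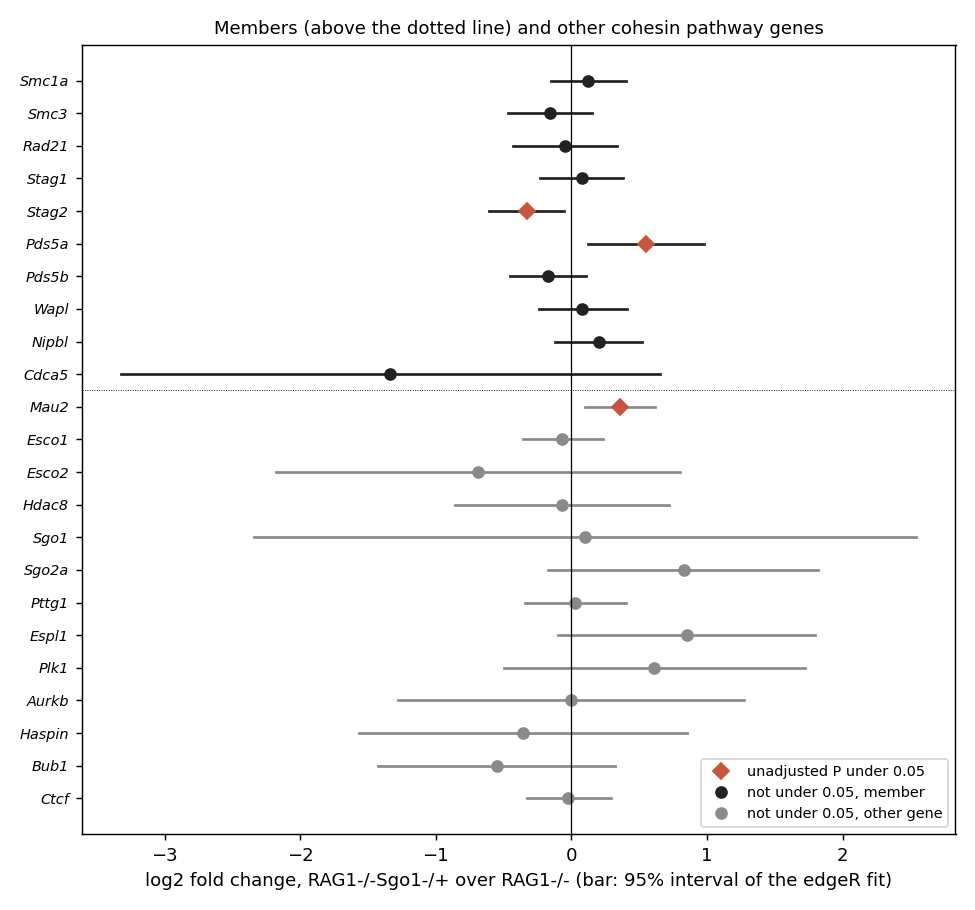
Log2 fold change of the 10 members (above the dotted line) and the 13 other cohesin pathway genes, RAG1-/-Sgo1-/+ over RAG1-/-, with 95% intervals of the edgeR fit; diamonds mark an unadjusted *P* under 0.05. Stag2 lies at -0.33, Pds5a at 0.55 and Mau2 at 0.36 with intervals that leave out 0, and the intervals of Cdca5, Sgo1 and Esco2 are the widest.

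**Figure D5:**
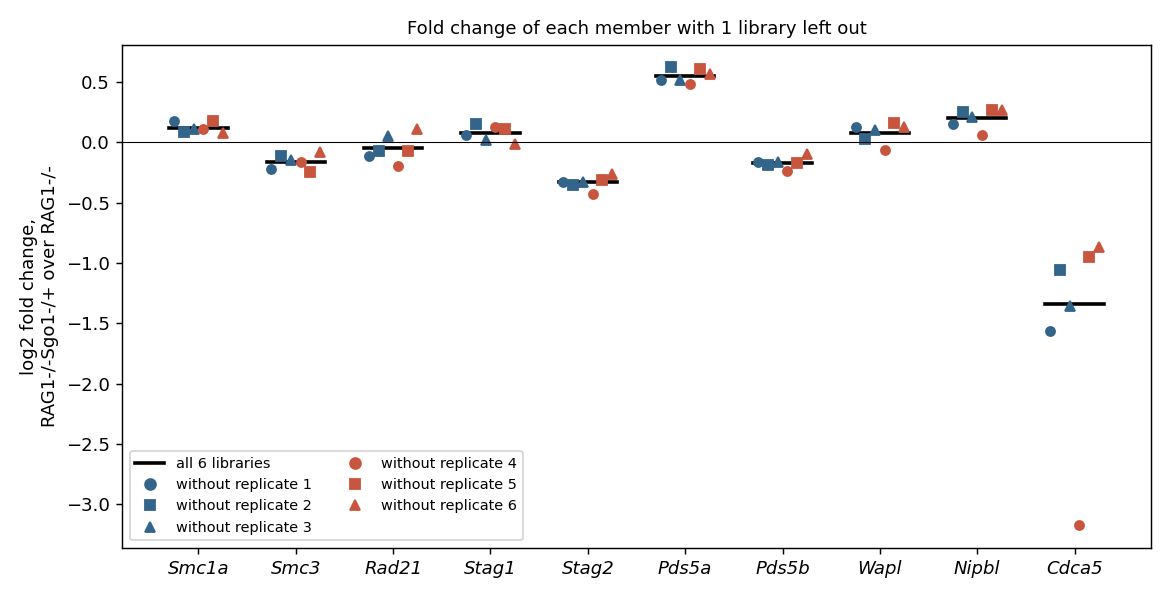
Log2 fold change of each member with all 6 libraries (black line) and with 1 library left out (points, blue for RAG1-/- and red for RAG1-/-Sgo1-/+). Stag2 stays between -0.43 and -0.26 and Pds5a between 0.48 and 0.62, Rad21, Stag1 and Wapl cross 0, and Cdca5 reaches -3.17 without replicate 4.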

How the data were processed

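The authors sequenced lung RNA on an Illumina MiSeq (TruSeq V2 kit, paired reads, strand not stated) and deposited raw read counts per gene, mapped to mouse Build 37.2 per the file headers and analysed with GeneSifter; the submitters' processing notes name BWA and edgeR, and settings are not given in the sources used here. Every library fills 2 columns that hold the same counts, of which 1 was read. Of the values from 1 to 10, 81.0% to 83.5% are even, so a read pair may often count as 2. A second deposited file holds only the authors' comparison (group means with SEM, ratios and *P*) and was not used.

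Genes were named by Entrez Gene ID (93.0% matched). Genes with at least 10 counts over the 6 libraries were tested with edgeR 4.0.16 (quasi-likelihood, R 4.3.3) on total counts as library size, with the *P* adjusted over all of them. The SE is the log2 fold change over the square root of *F*, and intervals use the fit's degrees of freedom. CPM and shares were compared by two-sided exact permutation over libraries. Principal components used log2 CPM with a prior count of 2. Lengths are from GENCODE M21 and promoters from RefSeq, both on GRCm38. The workflow was tested on simulated counts.

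Alternatives were edgeR's TMM, DESeq2 size factors, no filter, filterByExpr, DESeq2 1.42.0, limma-voom (limma 3.58.1), thinning to 3205822 reads, halved counts, and each library left out. The members and gene lists were chosen with earlier results of these data known. Named genes are the members, label checks, genes of each list at an unadjusted *P* under 0.05 (at most 5) and preset cohesin pathway genes. B cell genes and adipocyte genes are given as sums.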

Additional observations from a re-analysis of the deposited data

How the results depend on the processing

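Under the 8 alternatives in scaling, filter, test, depth and counting, each member kept its direction, 2 members stayed at an unadjusted *P* under 0.05 (Stag2 and Pds5a in each). The median over the members stayed near 0 but changed sign, from 0.015 to -0.0098 under TMM and -0.0057 under DESeq2 size factors and DESeq2. DESeq2 called 1 gene, Awat1, with all its 65 reads in replicate 6. With each library left out, genes called numbered 0 to 1 (H2-K1 without replicate 5), genes at an unadjusted *P* under 0.05 numbered 571 to 1420 (571 without replicate 3 and 593 without replicate 2, against 976), members at that level numbered 0 to 2, and the members' median ran from -0.11 (without replicate 4) to 0.037. Rad21 ran from -0.20 to 0.11 (0.053 without replicate 3 and 0.11 without replicate 6), Stag1 from -0.014 (without replicate 6) to 0.15, and Wapl from -0.060 (without replicate 4) to 0.16. The cause was not tested. No paired analysis was possible because the labels number the libraries 1 to 6 and the groups share no number. The shares within pairs kept their direction when thinned and with each library left out, but their size moved both ways. For the Pds5b share, whose groups did not overlap, leaving out a library could not change the direction. The Nipbl difference of 1.99 points was 0.247 when thinned and 0.295 without replicate 1, but 3.84 without replicate 2. That of Stag2 went from -5.34 to -3.10 without replicate 6, but to -7.21 without replicate 4. That of Smc1a went from 5.12 to 2.82 without replicate 6, but to 7.53 without replicate 5. Among the members, depth limits Cdca5 most, and the *P* values rest on these 6 mice only.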

Other observations

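The related SMC complexes were read beside cohesin. Condensin, which compacts mitotic chromosomes, had 0 of 8 genes at an unadjusted *P* under 0.05 in edgeR, with a median log2 fold change of -0.056 and a sum of 184 to 200 CPM in RAG1-/- and 194 to 213 CPM in RAG1-/-Sgo1-/+. For the SMC5/6 complex, which acts in DNA repair, it was 0 of 6 genes, with a median of -0.25. Of these, 5 of 6 lay below 0, where 54.9% of all tested genes lay above 0, and so few genes cannot set the list apart. The SMC5/6 sum was 139, 147 and 145 CPM in RAG1-/- and 137, 124 and 128 CPM in RAG1-/-Sgo1-/+. Every RAG1-/-Sgo1-/+ library thus lay below every RAG1-/- library (exact permutation test, *P*=0.1, the smallest possible). The nearest libraries were at 139 and 137 CPM, several such sums were compared, and this *P* was not adjusted over them. Taken singly, 0 of the 6 genes had groups that did not overlap, against 11.8% of all tested genes.

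Of the meiotic cohesin subunits, Rad21l had 0 reads in every library and Smc1b 3 in all, so neither was tested. Rec8, the meiotic counterpart of Rad21, was present in the lung at 12.3, 17.2 and 2.12 CPM in RAG1-/- and 6.46, 14.3 and 10.3 CPM in RAG1-/-Sgo1-/+. Its coefficient of variation of 73.0% in RAG1-/- exceeds that of each member in that group, the largest of which is 34.9% for Cdca5. In RAG1-/-Sgo1-/+ that of Rec8 was 37.7%, below the 135% of Cdca5. At an unadjusted *P* under 0.05, a level that 5.66% of all tested genes reached, 4 of 6 B cell markers and 2 of 4 adipocyte markers differed, and single RAG1-/- libraries carry these differences. The B cell sum was 718 CPM in replicate 2 against 15.8 to 20.7 in the others, and the adipocyte sum 163 CPM in replicate 1 against 21.2 to 31.9. The 5 cardiac muscle markers had 0, with a sum of 103 to 183 CPM over the libraries.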
